A study of Rattus norvegicus with 15 samples.

Results

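The 9 genes described here are interferon-stimulated genes and regulators of that response: Irf1, Irf7, Isg15, Mx1, Mx2, Oas1a, Ifit2, Ifit3 and Gbp2. They were chosen by name, as the entries of the gene table whose symbol is one of these 9, out of 37991 genes. All 9 are among the 17201 genes with enough counts to be tested. RNA was sequenced from the multifidus, a deep muscle beside the spine, of rats after spinal surgery, with or without later injections of mitochondria or vitamin D.

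Interferons bind receptors at the cell surface, and kinases of the JAK family then phosphorylate STAT proteins, which enter the nucleus and switch on a shared set of antiviral genes. Part of that set feeds back on the response through transcription factors of the IRF family, and the rest codes for proteins that bind viral RNA or restrict pathogens inside the cell. In injured muscle such genes can be transcribed by muscle fibres, by vessel cells and by the immune cells that enter the tissue.

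The rats were wild-type male Sprague Dawley animals, 12 weeks old and weighing 340 to 370 g, in 5 groups. Control rats, with 2 libraries, had no injury, and surgery rats, also with 2 libraries, had the spinal operation and no later treatment. Rats of the pMT group, with 4 libraries, were operated and then given mitochondria isolated from human plasma, at 25 μg in 100 μL of SHE buffer in each of the injected sites, 50 μg in total. VitD rats, with 3 libraries, were operated and given cholecalciferol, a form of vitamin D, at 150 μg (6000 IU) per site, 300 μg in total. Rats of the pMT/VitD group, with 4 libraries, were operated and given both agents at each site. For the pMT group the injections are placed at day 14 after surgery, and for the control, surgery and pMT groups the tissue was taken at day 28; for the VitD and pMT/VitD groups the days are not stated. The surgery group received no buffer, so an effect of the buffer or of the injection cannot be told apart from one of the agents. The labels do not say that the libraries of a group are separate animals, so the p-values below measure the spread between these libraries.

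The shallowest library held 52342134 counts and the deepest 73557878, the median being 64352162. Levels of 1 gene across libraries are given as CPM, read counts scaled to library totals adjusted by the TMM factors of edgeR, and levels of different genes are compared in the authors' TPM, which divides by gene length. The 9 genes had between 151 and 2825 counts in any library, so counting error is small beside the spread between libraries for most of them. A gene is called different where the Benjamini-Hochberg adjusted p of edgeR's quasi-likelihood test, over all 17201 genes, was under 0.05. In bulk tissue, fewer cells of a type and less RNA per cell cannot be told apart.

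Several libraries stood apart from their group, measured as the standard deviation of log2 ratios over 3129 abundant genes. Library 4 of the pMT group lay 0.365 to 0.550 from the other pMT libraries but 0.178, 0.260 and 0.314 from pMT/VitD 1, 2 and 3. Its share of counts from the 13 mitochondrial protein genes was 22.6%, against 11.1% to 12.9% in the other pMT libraries. This share was 14.5% and 15.6% in control, 10.7% and 11.2% in surgery, 13.5% to 17.7% in pMT/VitD 1 to 3, 11.5% in pMT/VitD 4 and 10.9% to 13% in VitD. Its part in the results for the 9 genes was not tested. Library 4 of the pMT/VitD group lay 0.371 to 0.479 from its own group but 0.253, 0.194 and 0.240 from pMT 1, 2 and 3, and 0.166 from Control 1. Also nearest to Control 1 was pMT/VitD 3, at 0.232. With VitD 2, described next, 4 treated libraries were nearest to a library of another group. Whether labels were exchanged between libraries was not tested.

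The VitD group was uneven too. VitD 1 lay 0.398 to 0.528 from the other VitD libraries, while VitD 2 lay 0.0821 from Surgery 2, which was closer than any VitD library. Its counts differed from those of Surgery 2 by more than sampling noise, with a chi-square of 6.75 per degree of freedom. The 2 surgery libraries were closer still, at a distance of 0.0636 and a chi-square of 4.66, the lowest of all pairs compared. A chi-square above 1 here means more than counting error and does not show that libraries are separate animals. Results for the 9 genes are given with and without these libraries, and for other genes as counts of calls in each list.

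Mean levels of the 9 genes ran from 2.99 to 14.9 TPM. Averaged over the 15 libraries, Irf7 had the highest TPM at 14.9 and Isg15 followed at 11.2. Next came Gbp2 at 8.96, Ifit2 at 8.06 and Irf1 at 7.66. The lowest were Ifit3 at 4.31, Mx2 at 3.96, Oas1a at 3.93 and Mx1 at 2.99. Neighbours in this order were not separated beyond their spread, since the ranges over the 15 libraries of each pair of neighbours overlapped. Added over the 9 genes, TPM came to 50.8 and 48.4 for control and to 85.8 and 85.9 for surgery. It was 64.1, 64.8, 60.9 and 56.4 in pMT, 49.0, 44.0, 51.7 and 48.2 in pMT/VitD, and 113, 87.7 and 77.3 in VitD. The pMT/VitD sums lay around the control sums, the pMT sums lay between control and surgery, and 2 of the 3 VitD sums lay above both surgery sums. TPM takes no account of changes in the make-up of the whole library, and the groups separate less on the scaled counts. Scaled counts are used below for CPM values, log2 fold changes and tests. Levels and sums given below in TPM are the authors' and carry no such adjustment.

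**Figure D1:**
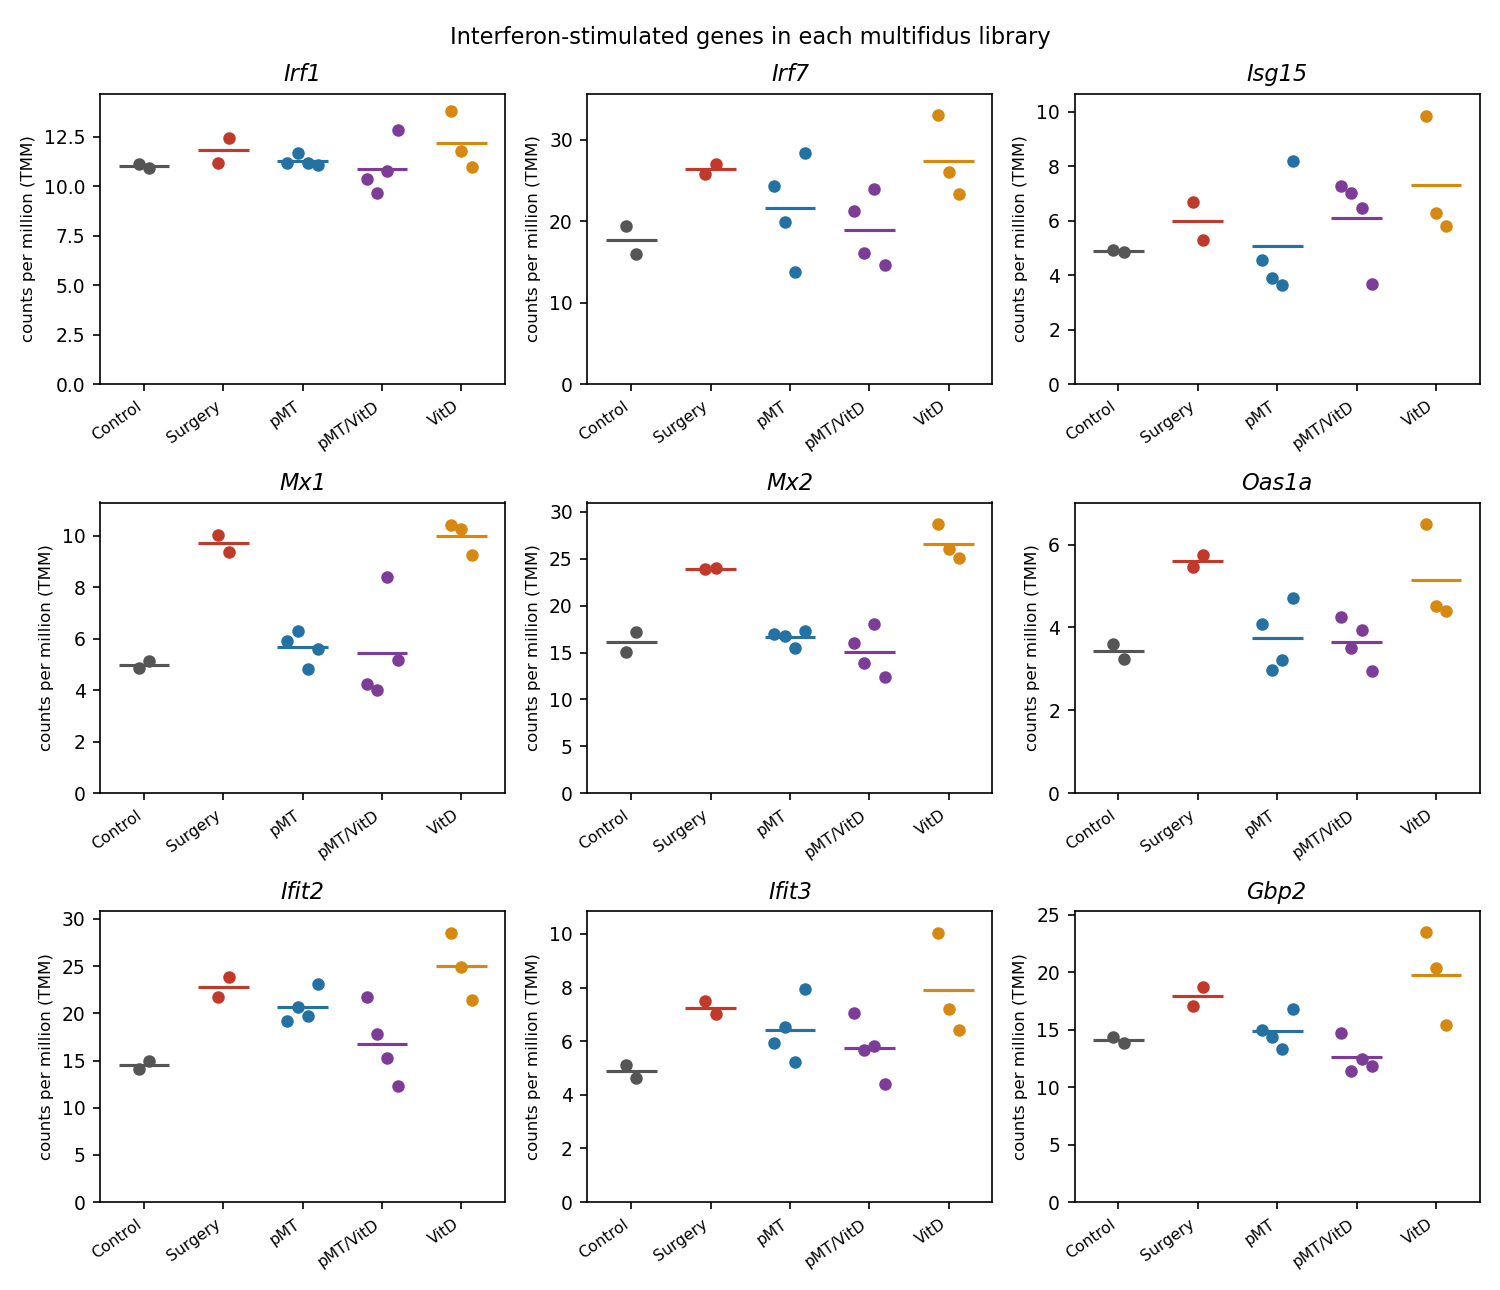
CPM (TMM factors) of the 9 genes in each library, with 1 panel per gene, 1 point per library and a bar at the group mean, for 2 control, 2 surgery, 4 pMT, 4 pMT/VitD and 3 VitD libraries. For Mx2 the 5 surgery and VitD libraries sit between 23.9 and 28.7, and the other 10 between 12.4 and 18.1.

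Irf1 (gene ID 24508) is a transcription factor that interferon gamma induces strongly. Its level was 11.1 and 10.9 CPM in control, 11.2 and 12.4 in surgery, 11.2, 11.7, 11.2 and 11.1 in pMT, 10.4, 9.64, 10.8 and 12.8 in pMT/VitD, and 13.8, 11.8 and 11 in VitD. The groups lay within a narrow band, and only Surgery 2, pMT/VitD 4 and VitD 1 passed 12. In the test over the 5 groups the adjusted p of edgeR's quasi-likelihood test with Benjamini-Hochberg was 0.789, the highest of the 9 genes. The largest difference between groups was a log2 fold change of -0.16 ± 0.11 (SE) in pMT/VitD (n = 4) against VitD (n = 3).

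Irf7 (gene ID 293624) is the transcription factor that amplifies transcription of type I interferon genes. In CPM it stood at 19.4 and 15.9 in control, 25.8 and 27.0 in surgery, 24.3, 19.9, 13.8 and 28.4 in pMT, 21.2, 16.1, 24.0 and 14.6 in pMT/VitD, and 33.0, 26.0 and 23.3 in VitD. Surgery and VitD lay above control without overlap, whereas the pMT libraries spread from below control, in pMT 3, to above surgery, in pMT 4. The test over the 5 groups did not pass (edgeR's quasi-likelihood test, Benjamini-Hochberg adjusted p = 0.266). In VitD against control the log2 fold change was 0.64 ± 0.27 (SE), which did not pass either. Leaving out pMT 3 gave 1 call in Irf7, in pMT/VitD against VitD, at an adjusted p of 0.0469 by edgeR, against 0.0947 with all libraries and a range of 0.00355 to 0.712 over 28 alternatives.

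Isg15 (gene ID 298693) codes for a ubiquitin-like protein that is attached to other proteins during an interferon response. It had 4.91 and 4.87 CPM in control, 6.68 and 5.29 in surgery, 4.55, 3.89, 3.65 and 8.17 in pMT, 7.28, 7.03, 6.45 and 3.66 in pMT/VitD, and 9.85, 6.27 and 5.80 in VitD. The libraries numbered 4 broke from their groups in opposite directions here, pMT 4 being the highest of its group and pMT/VitD 4 the lowest. With all 15 libraries the log2 fold change of pMT/VitD against pMT was 0.27 ± 0.27 (SE), with an adjusted p of 0.737 in edgeR's quasi-likelihood test with Benjamini-Hochberg. Without both libraries numbered 4 it was 0.79 ± 0.19 (SE), and the adjusted p was 0.0132 in the same edgeR test, which is past the threshold. Over its 28 alternatives this adjusted p ran from 0.00159 to 0.972. Among the 9 genes, Isg15 is the only one whose level was higher in pMT/VitD than in pMT in the fit to all 15 libraries.

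Mx1 (gene ID 24575) codes for a dynamin-like GTPase that blocks the replication of RNA viruses. Its CPM values were 4.84 and 5.12 in control, 10 and 9.37 in surgery, 5.91, 6.31, 4.84 and 5.58 in pMT, 4.24, 4, 8.39 and 5.18 in pMT/VitD, and 10.4, 10.3 and 9.24 in VitD. Every surgery and VitD library was above 9 and every other library was below 8.5, with pMT/VitD 3 the nearest of the latter. Over the 5 groups the adjusted p of edgeR's quasi-likelihood test with Benjamini-Hochberg was 0.0113. Surgery was above control by a log2 fold change of 0.96 ± 0.26 (SE), 1.95-fold, but the adjusted p of 0.0815 in the edgeR test with Benjamini-Hochberg missed the threshold. VitD against control gave 1 ± 0.25 (SE), with an adjusted p of 0.0256 in the same edgeR test.

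Both groups given mitochondria were lower in Mx1. In pMT/VitD against surgery the log2 fold change was -0.83 ± 0.22 (SE), with an adjusted p of 0.0372 in edgeR's quasi-likelihood test with Benjamini-Hochberg, and in pMT/VitD against VitD it was -0.87 ± 0.20 (SE), with an adjusted p of 0.00763. In pMT against surgery it was -0.78 ± 0.22 (SE), with an adjusted p of 0.0971 by edgeR and Benjamini-Hochberg, which missed the threshold. Leaving out pMT/VitD 3, the library highest in its group, brought this last value to an adjusted p of 0.0115 by edgeR and that of surgery against control to 0.0155. Without Surgery 1 or Surgery 2, the lone surgery library is assumed to vary like the other groups. The call of pMT/VitD against surgery in Mx1 was lost without any 1 of several libraries. Over 28 alternatives the log2 fold change of this difference stayed between -1.16 and -0.71. Its adjusted p by edgeR was 0.25 without Surgery 1, 0.207 without Surgery 2, 0.0866 without pMT/VitD 2 and 0.0849 without pMT/VitD 1. It was just over 0.05 without VitD 2 at 0.0557, Control 2 at 0.0547, Control 1 at 0.0545, pMT 2 at 0.0518 or pMT 1 at 0.0517. VitD against control lost its call in Mx1 without Control 1, Control 2, VitD 1 or VitD 2, at adjusted p-values of 0.2, 0.152, 0.0714 and 0.0602 by edgeR. The difference between pMT/VitD and VitD was called in Mx1 with any of the 15 libraries left out. Over 28 alternatives the adjusted p of Mx1 ran from 7.45e-06 to 0.274 there, from 4.86e-05 to 0.25 in pMT/VitD against surgery and from 5.14e-05 to 0.424 in VitD against control.

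Mx2 (gene ID 286918) codes for a related GTPase of the same family. Levels in CPM were 15.1 and 17.2 in control, 23.9 and 24.0 in surgery, 17.0, 16.7, 15.5 and 17.3 in pMT, 16.1, 13.9, 18.1 and 12.4 in pMT/VitD, and 28.7, 26.0 and 25.1 in VitD. The 2 operated groups without mitochondria stood entirely above the other 3 groups, and those 3 overlapped one another. Mx2 had the lowest adjusted p of the 9 genes over the 5 groups, 0.00136 by edgeR's quasi-likelihood test with Benjamini-Hochberg, and it was called over the 5 groups in all 26 alternatives tried. In surgery against control its log2 fold change was 0.57 ± 0.15 (SE), with an adjusted p of 0.0743 by edgeR and Benjamini-Hochberg. It was 0.72 ± 0.14 (SE) in VitD against control, with an adjusted p of 0.0108 in the same edgeR test.

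With mitochondria, Mx2 was lower by 1.59-fold in pMT/VitD against surgery, a log2 fold change of -0.67 ± 0.13 (SE) with an adjusted p of 0.00881 by edgeR's quasi-likelihood test with Benjamini-Hochberg. Against VitD, pMT/VitD was lower by 1.76-fold, at -0.82 ± 0.12 (SE) with an adjusted p of 0.00052 in that edgeR test. The pMT group alone was below surgery by -0.52 ± 0.13 (SE), with an adjusted p of 0.0538 by edgeR and Benjamini-Hochberg, just short of the threshold. Without both libraries numbered 4 this last value was -0.56 ± 0.12 (SE), and its adjusted p by edgeR was 0.0249. Leaving out single libraries also moved it across, to an adjusted p by edgeR of 0.0321 without pMT/VitD 3, 0.0239 without pMT/VitD 4 and 0.0335 without VitD 1. For surgery against control the same 3 libraries gave 0.0482, 0.0343 and 0.0421 by edgeR. Without Surgery 1 or Surgery 2, pMT/VitD against surgery in Mx2 missed the threshold, at an adjusted p of 0.103 and 0.108 by edgeR, with the lone surgery library assumed to vary like the other groups. Without Control 1 or Control 2 the same happened to VitD against control, at 0.142 and 0.0779 by edgeR. Over 28 alternatives the adjusted p of Mx2 ran from 1.48e-08 to 0.0704 in pMT/VitD against VitD, from 3.05e-05 to 0.108 in pMT/VitD against surgery and from 1.97e-05 to 0.38 in pMT against surgery.

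Oas1a (gene ID 192281) codes for an enzyme that senses double-stranded RNA and makes the oligoadenylates that activate RNase L. Its level was 3.60 and 3.25 CPM in control, 5.47 and 5.76 in surgery, 4.08, 2.98, 3.23 and 4.71 in pMT, 4.26, 3.50, 3.93 and 2.94 in pMT/VitD, and 6.50, 4.51 and 4.40 in VitD. Surgery lay above all libraries of control, pMT and pMT/VitD, and VitD overlapped pMT through pMT 4. Its differences were of the size seen in Mx2, with log2 fold changes of 0.71 ± 0.25 (SE) in surgery against control, -0.58 ± 0.21 in pMT against surgery and -0.62 ± 0.21 in pMT/VitD against surgery. None passed, and over the 5 groups the adjusted p of edgeR's quasi-likelihood test with Benjamini-Hochberg was 0.0888. Without pMT 4 that adjusted p was 0.0387 by edgeR, in a range of 0.000289 to 0.256 over 26 alternatives. Without VitD 1 the adjusted p of Oas1a in pMT/VitD against surgery was 0.0465 by edgeR, against 0.0858 with all libraries.

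Ifit2 (gene ID 294091) and Ifit3 (gene ID 309526) code for proteins built from tetratricopeptide repeats that bind viral RNA or partner proteins and limit translation. Ifit2 had 14.1 and 14.9 CPM in control, 21.7 and 23.8 in surgery, 19.1, 20.7, 19.7 and 23.1 in pMT, 21.8, 17.8, 15.3 and 12.3 in pMT/VitD, and 28.5, 25.0 and 21.4 in VitD. Unlike the Mx genes, Ifit2 was above both control libraries in every pMT library, and pMT overlapped surgery. The log2 fold change of pMT against control was 0.51 ± 0.18 (SE), with an unadjusted p of 0.0141 and an adjusted p of 1 by edgeR's quasi-likelihood test with Benjamini-Hochberg. In VitD against control it was 0.78 ± 0.19 (SE) with an adjusted p of 0.0253 by edgeR, and in pMT/VitD against VitD it was -0.57 ± 0.16 (SE) with an adjusted p of 0.0185. The latter was no longer called without VitD 1, at an adjusted p of 0.0971 by edgeR, or without VitD 2, at 0.0514. Without VitD 1, VitD 2, Control 1 or Control 2, VitD against control in Ifit2 had adjusted p-values of 0.0868, 0.0572, 0.201 and 0.144 by edgeR. Over 28 alternatives the adjusted p of Ifit2 ran from 9.21e-05 to 0.528 in VitD against control and from 0.000559 to 0.487 in pMT/VitD against VitD.

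Ifit3 followed the same order at a lower level. Its CPM values were 5.13 and 4.63 in control, 7.48 and 7.01 in surgery, 5.91, 6.54, 5.22 and 7.95 in pMT, 7.04, 5.67, 5.81 and 4.42 in pMT/VitD, and 10, 7.20 and 6.43 in VitD. Again control was the lowest group together with pMT/VitD 4, and VitD 1 stood above every other library. Over the 5 groups it did not pass (edgeR's quasi-likelihood test, Benjamini-Hochberg adjusted p = 0.179). Its largest difference was VitD against control, a log2 fold change of 0.69 ± 0.22 (SE), with an adjusted p of 0.0686 by edgeR. For Ifit3 that adjusted p was 0.048 by edgeR without pMT 4, 0.0432 without pMT/VitD 4 and 0.0331 without VitD 3, in a range of 0.00291 to 0.754 over 28 alternatives. Without VitD 3, pMT/VitD against VitD in Ifit3 was also called, at 0.0454 by edgeR.

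Gbp2 (gene ID 171164) codes for a guanylate-binding protein, a large GTPase that interferon gamma induces and that gathers on the vacuoles of intracellular pathogens. Levels in CPM were 14.4 and 13.9 in control, 17.0 and 18.8 in surgery, 15, 14.4, 13.4 and 16.8 in pMT, 14.7, 11.4, 12.5 and 11.9 in pMT/VitD, and 23.5, 20.4 and 15.4 in VitD. The lowest VitD library was above the highest pMT/VitD library by a small margin, and 3 of the 4 pMT/VitD libraries were below both controls. In pMT/VitD against VitD the log2 fold change was -0.65 ± 0.14 (SE), with an adjusted p of 0.0048 by edgeR's quasi-likelihood test with Benjamini-Hochberg, and it was called with any of the 15 libraries left out. Against surgery pMT/VitD gave -0.50 ± 0.15 (SE), with an adjusted p of 0.0577 by edgeR and Benjamini-Hochberg. That adjusted p was 0.0461 by edgeR without pMT 4, 0.0288 without VitD 1 and 0.0268 without VitD 3, in a range of 0.00473 to 0.374 over 28 alternatives. VitD against control in Gbp2 was called without VitD 3 alone, at 0.0133 by edgeR, against 0.0809 with all libraries.

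Across the 5 groups, 4 of the 9 genes were called, Mx1, Mx2, Ifit2 and Gbp2, where 11.8% of all genes tested were called. Leaving out any of the 15 libraries kept Mx1 and Mx2. Ifit2, with an adjusted p of 0.0411 by edgeR's quasi-likelihood test with Benjamini-Hochberg, was kept in 4 of those 15 fits, those without pMT 4, pMT/VitD 1, pMT/VitD 4 or VitD 3, and lay between 0.0529 and 0.12 in the others. Gbp2, with an adjusted p of 0.0307 in the same edgeR test, was kept in these 4 and without pMT 3, and lay between 0.0514 and 0.101 in the others. Without both VitD libraries numbered 1 and 2, an alternative chosen after seeing the data that leaves VitD 3 alone in its group, 1 of the 9 was called, Mx2, and 4.08% of all genes. With the trend on gene length removed Ifit2 lost its call and Oas1a gained one.

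The comparison of surgery with control asks what the operation leaves in the muscle. All 9 genes were higher in surgery, with a median log2 fold change of 0.57 and a range of 0.10 to 0.96, against a median of -0.01 over all genes tested. For all 9, both surgery libraries lay above both control libraries, which held for 31.7% of all genes. Even so, 0 of the 9 were called by edgeR's quasi-likelihood test, while 1.25% of all genes were called higher and 0.296% lower. At an unadjusted p under 0.05 there were 5 of the 9, and 2923 of all genes. DESeq2 called 2 of them, limma voom 7, and edgeR's exact test on these groups alone 7, but these tools also called 5.82%, 28.7% and 36.2% of all genes. With library totals unadjusted by TMM factors the median of all genes moved to 0.25 and that of the 9 genes to 0.84, so the 9 genes remained above all genes by about the same amount.

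Comparing VitD with control puts the operated muscle that received vitamin D beside uninjured muscle. Again all 9 genes were higher, with a median of 0.64 against -0.01 over all genes, and 3 were called, Mx1, Mx2 and Ifit2, where 5.48% of all genes were called higher and 3.2% lower. All VitD libraries were above both control libraries in 8 of the 9, against 25% of all genes. Without VitD 1 and VitD 2 the group is VitD 3 alone, assumed to vary like the other groups. Then 0 of the 9 were called by edgeR, and 31 genes in all, and the median of the 9 was 0.40, with 8 of them higher. A fit with 1 library in a group has little power, so lost calls alone do not show that a result rests on the libraries left out, here or below. VitD against surgery asks whether vitamin D alone moved these genes. There 8 of the 9 were higher, with a median of 0.12 against 0.00 over all genes, and 0 were called by edgeR's quasi-likelihood test, as were 0% of all genes. At an unadjusted p under 0.05 there were also 0 of the 9, and DESeq2, limma voom and edgeR's exact test each called 0, beside 1, 405 and 4 of all genes. The direction depended on VitD 1, since without it 4 were higher and 5 lower, with a median of 0.00, and without VitD 1 and VitD 2 together 1 was higher and 8 lower, with a median of -0.11. By limma voom 5 were higher and 4 lower.

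Whether mitochondria alone moved these genes is the question of pMT against surgery. All 9 were lower, with a median of -0.26 and a range of -0.78 to -0.07, against 0.02 over all genes. In 4 of the 9 every pMT library was below both surgery libraries, which held for 17.2% of all genes. None was called by edgeR's quasi-likelihood test, that is 0 of 9, where 1.55% of all genes were called lower and 0.395% higher. At an unadjusted p under 0.05 there were 3, and 2455 of all genes. DESeq2 called 2, limma voom 6 and edgeR's exact test 2, beside 4.34%, 37.7% and 5.66% of all genes. Leaving out pMT 4 moved the median of the 9 genes to -0.45 and leaving out pMT 3 to -0.13, with 0 called in both cases. Without Surgery 2, 8 were lower and 1 higher. With unadjusted library totals the median over all genes was -0.12 and that of the 9 genes -0.43.

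Mitochondria together with vitamin D were compared with surgery in the same way. Here 8 of the 9 genes were lower and Isg15 was not, with a median of -0.48 against 0.00 over all genes. Mx1 and Mx2 were called, 2 of the 9, where 5.03% of all genes were called lower and 2.4% higher. In 5 of the 9 all pMT/VitD libraries were below both surgery libraries, against 20.2% of all genes. Isg15 too was lower with unadjusted library totals, which moved the median over all genes to -0.32 and that of the 9 genes to -0.81, and with the trend on gene length removed. It was also lower with Surgery 2, pMT/VitD 1, pMT/VitD 2 or pMT/VitD 3 left out, so its sign is not settled. With the length trend removed the count of calls stayed at 2, but Mx2 lost its call and Oas1a gained one. Without both libraries numbered 4 there were 3 calls, the same 2 and Gbp2, and a median of -0.38, with 20.1% of all genes called instead of 7.44%.

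Against VitD, which asks what mitochondria add to vitamin D, all 9 were lower in pMT/VitD, with a median of -0.53 against 0.00 over all genes. Here 4 were called, Mx1, Mx2, Ifit2 and Gbp2, and 0 in the other direction, where 12.2% of all genes were called lower and 9.66% higher. In 4 of the 9 all pMT/VitD libraries were below all VitD libraries, against 15.6% of all genes. Leaving out both libraries numbered 4 gave the same 4 calls and a median of -0.44, with 32% of all genes called instead of 21.9%. Without VitD 1 and VitD 2 together 0 of the 9 were called by edgeR, and 0.897% of all genes, and the median of the 9 shrank to -0.29, with 8 lower and 1 higher. Without VitD 1 alone 8 were lower too, with a median of -0.38. With the length trend removed Ifit2 lost its call and Isg15 and Oas1a gained one. The log2 fold changes of Mx1 and Mx2 without VitD 1 and VitD 2 were -0.76 ± 0.30 (SE) and -0.73 ± 0.17 (SE), close to those in all libraries. That of Gbp2 shrank to -0.29 ± 0.16 (SE). For Ifit2 the value was -0.57 in all libraries and ran from -0.94 to -0.35 over all alternatives. With unadjusted library totals the median over all genes was -0.34 and that of the 9 genes -0.90.

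Between the groups that both received mitochondria, pMT/VitD against pMT, 8 of the 9 were lower and Isg15 higher. Their median was -0.14 against -0.02 over all genes. It moved to -0.06 without pMT 4, -0.05 without pMT/VitD 4 and -0.23 without pMT/VitD 3. The edgeR test called 0 of 9 and 0% of all genes, no gene of the 9 had an unadjusted p under 0.05, and DESeq2 called 0 and limma voom 2, beside 0.517% and 38.5% of all genes. With unadjusted library totals the median was -0.33 against -0.21 over all genes. With the trend on gene length removed, 6 were lower and 3 higher. Without both libraries numbered 4, 5 were lower and 4 higher, with a median of -0.03. Then 18.3% of all genes were called, so the result here depends on those libraries.

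Set against control, the pMT group was higher in all 9 genes, with a median of 0.13 against 0.00 over all genes. This depended on pMT 4, since without it 7 were higher and 2 lower, with a median of 0.05. Without both libraries numbered 4, 8 were higher and 1 lower, with a median of 0.06, and limma voom gave 7 and 2. The pMT/VitD group was higher in 6 and lower in 3, with a median of 0.10 against -0.01. In both comparisons edgeR's quasi-likelihood test called 0 of the 9 and 0% of all genes. At an unadjusted p under 0.05 there was 1 gene, Ifit2, for pMT and 0 for pMT/VitD, and limma voom called 1 and 0, beside 1.34% and 10.8% of all genes, and DESeq2 0 and 0. A test that misses its threshold does not show that these groups returned to the control level. For the interaction, which asks whether the difference that goes with mitochondria is different with and without vitamin D, edgeR called 0 of the 9. The lowest adjusted p was 0.899, 0 of the 9 had an unadjusted p under 0.05, and over all genes 888 did and 0 were called. The comparisons named above share libraries, so they are not independent of one another.

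**Figure D2:**
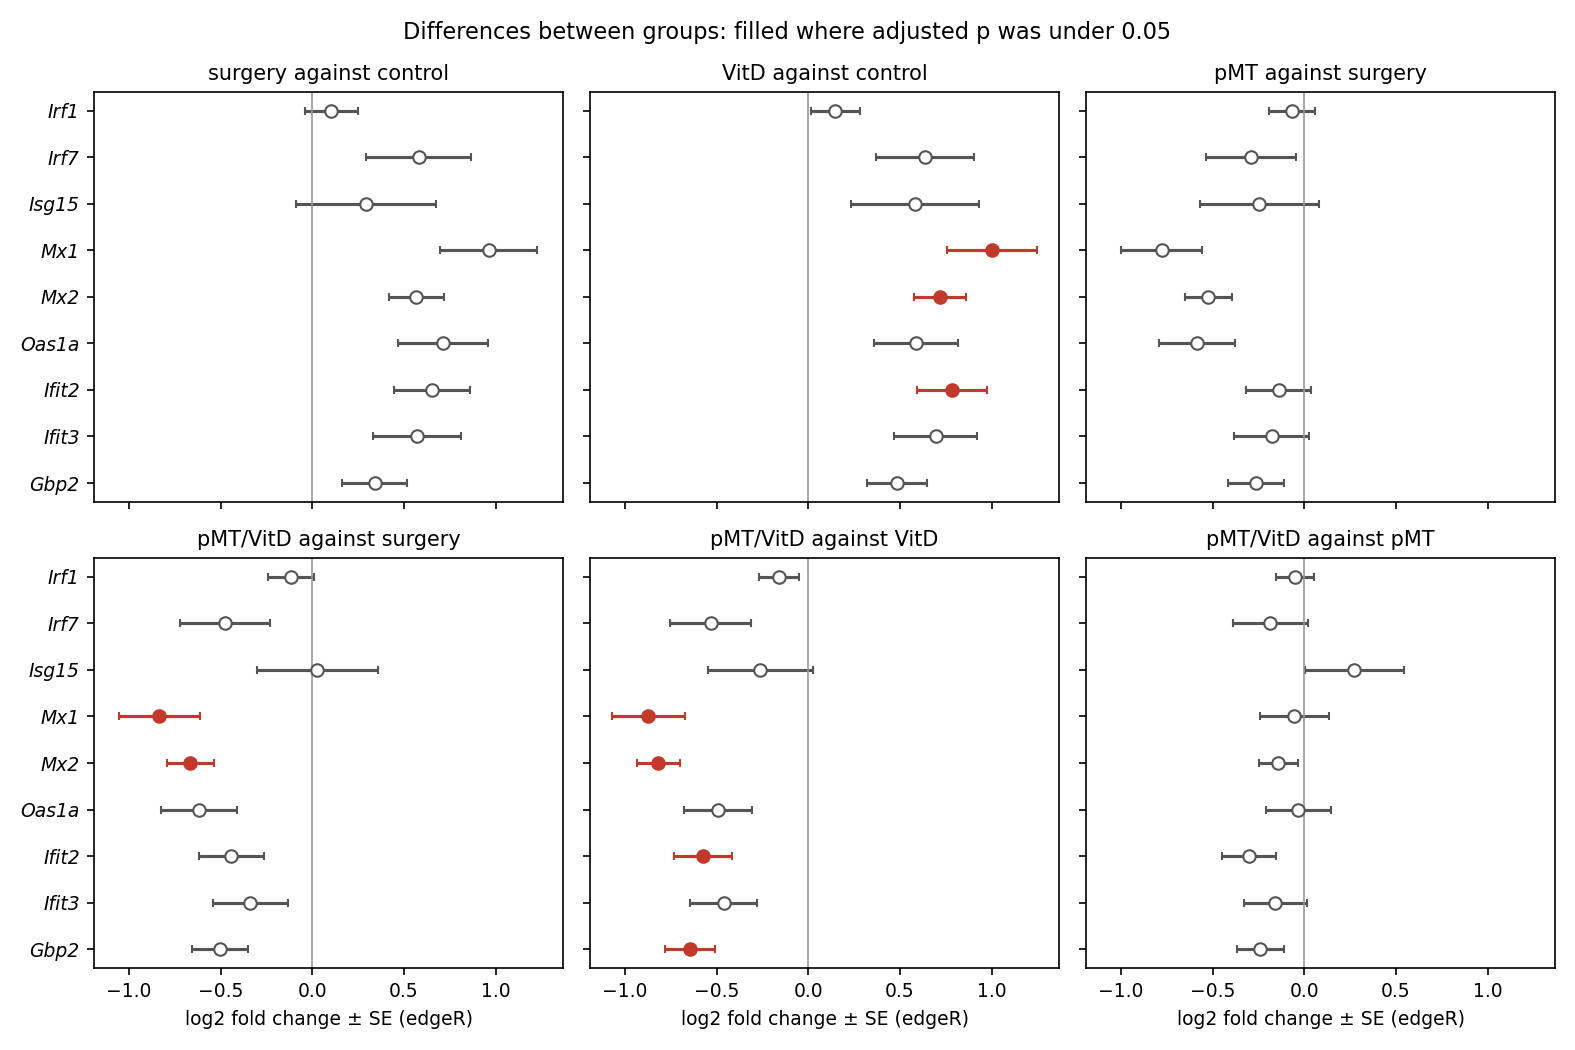
Log2 fold change of each of the 9 genes in 6 comparisons, as points with bars of 1 SE from edgeR's quasi-likelihood fit, filled where the adjusted p was under 0.05. All 9 points lie to the right of 0 in surgery and in VitD against control, and all 9 lie to the left of 0 in pMT against surgery and in pMT/VitD against VitD.

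The levels of the 9 genes in single libraries can be put on a common scale. As a mean of log2 ratios to the control mean, they stood at 0.53 in both surgery libraries and at 0.87, 0.56 and 0.40 in VitD. They stood at 0.19, 0.12, -0.05 and 0.42 in pMT and at 0.22, -0.01, 0.23 and -0.18 in pMT/VitD. The pMT library farthest above control by this measure, pMT 4, is the one with the high mitochondrial share. In summed TPM of the 9 genes it was instead the lowest of its group, at 56.4 against 60.9 to 64.8, and the nearest to control, at 50.8 and 48.4, so its place depends on the measure. By log2 ratio its highest gene was Isg15 while its lowest was Irf1. In the surgery and VitD libraries the highest of the 9 was Mx1 each time. Pearson's r between pairs of the 9, over 15 libraries in 5 groups and given as a description, had a median of 0.724 over 36 pairs. The 8 pairs with Irf1 ranged from -0.0513 to 0.598, and the 28 pairs without it from 0.327 to 0.906.

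Among 11390 tested genes with a mean of at least 1 in log2 CPM, the pattern over the 15 libraries most like the mean of the 9 was that of Serpinf1, with a Pearson r of 0.984. Next were Cp at 0.983, Mxra7 at 0.980, Mgp at 0.976 and Itgbl1 at 0.973. Pabpc1 and Leprot at 0.972 and Lsp1 at 0.970 completed the 8 highest. None of these 8 is in the gene lists described below, whose first gene, a macrophage marker, came at rank 39 with 0.955. These values describe likeness across libraries that share groups and carry no test.

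Interferons themselves were almost absent from the counts. Of 12 ligand genes listed, 6 had no count in any library, Ifna1, Ifna2, Ifna4, Ifnb1, Ifnl1 and Ifnl3. The other 6 had 16 counts between them over all libraries, Ifne being highest with 7. A count of 0 in a library allows a level of up to 0.0648 CPM at these depths, and up to 0.0351 in the library with the largest adjusted total, for counting error only. None of the ligand genes had enough counts to be tested, so a difference between groups was not detectable at this depth.

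The receptors and their kinases were transcribed in all libraries. Most abundant were Ifngr1, Jak1 and Ifngr2, whose mean TPM in control was 29.8, 25.3 and 9.99. Of 9 such genes 3 were called over the 5 groups, Ifngr2, Ifnlr1 and Il10rb, where 11.8% of all genes were called. Called lower in pMT/VitD against VitD were 4, Ifngr1, Ifnlr1, Il10rb and Ifnar1, and 1 was called higher, Ifngr2. In that comparison 12.2% of all genes were called lower and 9.66% higher. Il10rb, a shared chain of several cytokine receptors, was at -0.74 ± 0.16 (SE) in that comparison, and at 0.91 ± 0.19 (SE) in VitD against control. It was also lower in pMT/VitD against surgery, at -0.62 ± 0.18 (SE), the only one of the 9 called there. Of all genes, 5.03% were called lower in pMT/VitD against surgery. In surgery against control and in pMT against surgery 0 of the 9 were called by edgeR, with medians of 0.16 and -0.19. With VitD 3 as the only VitD library none of the interferon receptors and kinases was called in pMT/VitD against VitD, 0 against 5, while their median was -0.33 against -0.32 with all libraries.

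Among 12 transcription factors of the response, Ciita and Irf8 were called in the same 5 comparisons. Of all genes, 1.25% were called higher in surgery against control, and 1.55% and 5.03% lower in pMT and in pMT/VitD against surgery. In pMT/VitD against VitD 12.2% were called lower, and in VitD against control 5.48% higher. Ciita, the activator of class II antigen presentation genes, rose by a log2 fold change of 1.15 ± 0.21 (SE) in surgery against control, with an adjusted p of 0.0215 by edgeR's quasi-likelihood test with Benjamini-Hochberg. Its level was 1.58 ± 0.199 (SD) CPM in control, 3.50 ± 0.00228 in surgery, 1.97 ± 0.312 in pMT, 1.60 ± 0.265 in pMT/VitD and 3.58 ± 0.183 in VitD. It was lower in pMT against surgery at -0.82 ± 0.18 (SE), an adjusted p of 0.0301 by edgeR, and in pMT/VitD against surgery at -1.13 ± 0.18. Irf8, a factor of macrophages and dendritic cells, was at 0.76 ± 0.17 (SE), -0.62 ± 0.15 and -0.83 ± 0.15 in those comparisons. The more abundant Irf3 was called in none of them, and Stat3 was called lower in pMT/VitD against VitD alone. In that comparison 6 of the 12 were called lower, Nlrc5 and Irf5 among them, against 12.2% of all genes. With VitD 3 as the only VitD library 2 were called, and the median of the interferon transcription factors was -0.28 against -0.49.

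Genes that restrain the response went both ways, with 5 of 8 higher in surgery against control and 4 of 8 higher in pMT and in pMT/VitD against surgery. Over the 5 groups 2 were called, where 11.8% of all genes were called. Ptpn6, a phosphatase of blood cells, was called higher in surgery against control and lower in pMT and in pMT/VitD against surgery, at 0.83 ± 0.17 (SE), -0.64 ± 0.14 and -0.76 ± 0.14. The abundant Ptpn2 and Trim24 were called in none of these comparisons. Irf2bp1 was called higher in pMT/VitD against VitD, at 0.36 ± 0.10 (SE). The medians of the 8 were 0.08, 0.01 and 0.03 in those 3 comparisons with surgery.

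Sensors of nucleic acids and their adaptors come next. Of 21 such genes listed, 17 were in the table and tested. Tlr7, a receptor for single-stranded RNA in endosomes, stood at 3.12 ± 0.177 (SD) CPM in control, 5.81 ± 0.407 in surgery, 2.61 ± 0.261 in pMT, 2.29 ± 0.355 in pMT/VitD and 6.49 ± 0.163 in VitD. The surgery and VitD libraries, from 5.52 to 6.68, did not overlap the others, which ran from 1.87 to 3.25. In pMT against surgery its log2 fold change was -1.15 ± 0.15 (SE), with an adjusted p of 0.00159 by edgeR's quasi-likelihood test with Benjamini-Hochberg. In surgery against control it was 0.89 ± 0.18 (SE), and in pMT/VitD against VitD -1.50 ± 0.14. It was the only one of the 17 called in surgery against control and in pMT against surgery. Of all genes, 1.25% were called higher in the former and 1.55% lower in the latter. Called lower in pMT/VitD against surgery were 3, Tlr7, Tlr8 and Ticam1, where 5.03% of all genes were called lower. In pMT/VitD against VitD Myd88 and Tbk1 were called lower as well, 5 in all, where 12.2% of all genes were called lower. Mavs and Trex1, with Tbk1 the most abundant of the list, were not called. The list's medians were 0.42, -0.36, -0.42 and -0.42 in these 4 comparisons.

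The other antiviral effectors, 61 listed, 58 in the table and 53 tested, had medians of the same sign as those of the 9, but were split gene by gene. Of the 53, 39 were higher and 14 lower in surgery against control, and 12 were higher and 41 lower in pMT against surgery. In those with a mean of at least 1 in log2 CPM, Pearson's r with the mean of the 9 ran from -0.745 to 0.933. Their median log2 fold change was 0.31 in surgery against control, -0.21 in pMT against surgery, -0.30 in pMT/VitD against surgery, -0.39 in pMT/VitD against VitD and 0.37 in VitD against control. Called higher and lower in that order were 1 and 0, 1 and 1, 3 and 6, 4 and 12, and 8 and 2, where 1.55%, 1.94%, 7.44%, 21.9% and 8.67% of all genes were called in either direction. With VitD 3 as the only VitD library the last pairs of counts were 0 and 1, and 0 and 0, and the medians of the other antiviral effectors were -0.21 and 0.18. Ifitm1, a membrane protein that hinders virus entry, was at -1.14 ± 0.25 (SE) in pMT/VitD against surgery and at -1.31 ± 0.23 in pMT/VitD against VitD. Slfn3, with the largest differences, was at 1.48 ± 0.34 (SE) in surgery against control and -1.31 ± 0.28 in pMT against surgery, and Ifi44l was called higher in VitD against control. The most abundant, Ifi27, Ifitm3 and Ifitm2, were called in none of these comparisons, and Ifi27 had a mean TPM of 216 in control and 364 in surgery.

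A relative of Oas1a went the other way. Oas1k stood at 5.33 ± 0.287 (SD) CPM in control, 3 ± 0.152 in surgery, 6.56 ± 0.924 in pMT, 6.57 ± 1.21 in pMT/VitD and 2.92 ± 0.0818 in VitD. It rose by a log2 fold change of 1.12 ± 0.18 (SE) in pMT against surgery, with an adjusted p of 0.00613 by edgeR's quasi-likelihood test with Benjamini-Hochberg, and was at 1.17 ± 0.15 in pMT/VitD against VitD. Reads that align to several members of the Oas1, Mx, Ifit or Gbp families may be assigned in more than 1 way, and how they were handled is not stated, so levels within a family are uncertain.

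Of 14 GTPases of the interferon gamma response listed, 10 were in the table and 9 tested. Irgm, the most abundant of them, stood at 24.7 ± 3.41 (SD) CPM in control, 12.9 ± 0.380 in surgery, 20.3 ± 2.99 in pMT, 23.8 ± 1.34 in pMT/VitD and 12.9 ± 0.770 in VitD. This is the reverse of the order of the 9, and the libraries of surgery and VitD, at 13.8 or less, did not overlap the others, at 16.6 or more. Its log2 fold change was -0.94 ± 0.15 (SE) in surgery against control, with an adjusted p of 0.0121 by edgeR's quasi-likelihood test with Benjamini-Hochberg, and 0.66 ± 0.13 in pMT against surgery. Gbp1, a relative of Gbp2, was higher in pMT/VitD against surgery and against VitD, at 1.87 ± 0.47 (SE) and 1.69 ± 0.40, with pMT/VitD libraries spread from 8.75 to 40.8 CPM. Gbp4 and Ifi47 were called lower in pMT/VitD against VitD, and the abundant Irgm2 and Igtp were not called. The medians of the 9 GTPases tested were 0.04 in surgery against control and 0.07 in pMT against surgery.

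Chemokines and checkpoint genes induced by interferon gamma, 10 listed and 8 tested, had 2 called, Cxcl9 and Wars but not Cd274. Both were lower in pMT/VitD against VitD, where 12.2% of all genes were called lower and 9.66% higher. Of 12 genes of class I antigen presentation, 1 was called, Nlrc5, in the same comparison, at -0.69 ± 0.16 (SE), and the most abundant, B2m, Psme1 and Psme2, were not. In the other comparisons of the preceding paragraphs edgeR called 0 of these 8 and 0 of these 12.

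Markers of macrophages were called in the same comparisons as the 9 genes and in more. All 12 of the list were tested, Lyz2 was the most abundant before C1qa and C1qc, and none was at 0 in any library. Their summed TPM was 292 and 272 in control, 695 and 686 in surgery, 339, 370, 390 and 203 in pMT, 197, 193, 233 and 344 in pMT/VitD, and 983, 670 and 560 in VitD. The surgery and VitD libraries were all at 560 or more and the rest at 390 or less. Called were 3 higher in surgery against control, with a median log2 fold change of 0.85, and 6 lower in pMT against surgery, with -0.88. In pMT/VitD against surgery 11 were called lower, with -1.08. Of all genes, 1.25% were called higher in surgery against control, and 1.55% and 5.03% lower in pMT and in pMT/VitD against surgery. Against VitD, pMT/VitD had 11 lower, with a median of -1.19, where 12.2% of all genes were called lower. The largest differences there were those of Adgre1, C1qa, Itgam and Mrc1. In VitD against control 7 were higher, with 0.94, where 5.48% of all genes were called higher. With VitD 3 as the only VitD library these counts were 2 and 0, and the medians of the macrophage markers -0.88 and 0.71. Over the 15 libraries the mean of the marker genes had a Pearson r of 0.721 with the mean of the 9 genes, as a description. The part of macrophage number in the result for the 9 genes was not tested.

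T and NK cell markers, 13 listed and 12 tested, gave sums of 17.0 and 18.6 TPM in control, 40.1 and 40.3 in surgery, 19.4, 21.7, 24.6 and 12.6 in pMT, 11.1, 9.17, 15.1 and 23.2 in pMT/VitD, and 47.3, 37.5 and 33.4 in VitD. Most of this sum was Cd4, which rat macrophages also carry, next came Nkg7 and Cd2, and Klrb1 was at 0 in every library. The median log2 fold change was 1.13 in surgery against control and -1.05 in pMT against surgery. Calls were 1 higher in surgery against control, Nkg7, and 1 lower in pMT and in pMT/VitD against surgery, Cd4. They were 2 lower in pMT/VitD against VitD, Cd4 and Lck, and 2 higher in VitD against control. Of all genes, 1.25% were called higher in surgery against control, and 1.55% and 5.03% lower in pMT and in pMT/VitD against surgery. In pMT/VitD against VitD 12.2% were called lower, and in VitD against control 5.48% higher. B cell markers, 6 listed and 4 tested, summed to 0.884 and 0.277 TPM in control, 1.78 and 2.01 in surgery, 0.647, 0.824, 1.09 and 1.24 in pMT, 1.38, 0.989, 0.475 and 0.834 in pMT/VitD, and 2.39, 1.98 and 2.19 in VitD. Their most abundant genes were Cd79a and Cd79b, Pax5 was too low to be tested, and Cd22 was the only call, lower in pMT/VitD against VitD and higher in VitD against control.

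Neutrophil markers, 8 listed and 7 tested, with S100a9 the most abundant, then S100a8 and Camp, and Elane near 0, followed another pattern. Their sums were 2.78 and 3.59 TPM in control, 9.58 and 10.3 in surgery, 3.74, 4.68, 5.54 and 8.94 in pMT, 15.7, 21.5, 2.46 and 3.79 in pMT/VitD, and 9.29, 10.3 and 13.5 in VitD. The pMT/VitD group split into 2 high and 2 low libraries. Mpo was called higher and Csf3r lower in pMT/VitD against VitD, where 9.66% of all genes were called higher and 12.2% lower. Of 6 markers of plasmacytoid dendritic cells, which make type I interferon, 3 were tested, and the defining Siglech had 8 counts in all over 2 libraries. Ccr9 and Lair1 were also near 0, and the summed TPM was 4.98 and 4.79 in control, 8.11 and 8.02 in surgery, 6.43, 6.72, 8.29 and 4.16 in pMT, 2.98, 2.48, 3.61 and 6.11 in pMT/VitD, and 8.31, 6.81 and 6.85 in VitD. Most of it was Tcf4, which many cells transcribe, with Runx2 the lowest of those tested, and Il3ra was called lower in pMT/VitD against VitD.

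Endothelial markers, 9 of 9 tested with Pecam1 the most abundant, then Cdh5 and Emcn, and none at 0, summed to 136 and 138 TPM in control, 202 and 200 in surgery, 175, 207, 224 and 113 in pMT, 115, 121, 109 and 166 in pMT/VitD, and 228, 204 and 192 in VitD. In pMT the sums overlapped those of surgery and VitD, with pMT 4 apart, and their mean had a Pearson r of 0.237 with the mean of the 9 genes. On scaled counts, the median log2 fold change of these markers in surgery against control was 0.19, with 7 higher, 2 lower and 0 called. Of all genes, 1.25% were called higher there and 0.296% lower. Tie1 and Kdr were called over the 5 groups, where 11.8% of all genes were called. Tie1 was called lower in pMT/VitD against surgery, Pecam1 and Tie1 against VitD, and Tie1 and Emcn higher in VitD against control. Of all genes, 5.03% were called lower in pMT/VitD against surgery, 12.2% against VitD, and 5.48% higher in VitD against control. Muscle fibre markers, 11 of 11 tested with Acta1 the most abundant, then Ckm and Tnnt3, summed to 137286 and 124543 TPM in control, 137170 and 133394 in surgery, 126491, 132142, 137391 and 104465 in pMT, 121131, 133606, 133974 and 141823 in pMT/VitD, and 106052, 130650 and 140488 in VitD. These levels fit muscle tissue in every library, and the sums were lowest in pMT 4 and VitD 1. Of the 11, 3 were called higher in pMT/VitD against VitD, Ckm, Myh4 and Tnni2, as were 9.66% of all genes. For all these cell types, their part in the result for the 9 genes was not tested.

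Calls in the lists also varied with the libraries that stood apart. With VitD 3 as the only VitD library, VitD against control had 0 calls in every list, where 0.176% of all genes were called. In pMT/VitD against VitD, where 0.897% of all genes were called, there were then 2 among interferon transcription factors, 2 among macrophage markers and 1 each in nucleic acid sensing, other antiviral effectors and interferon gamma GTPases, and 0 in every other list. Without both libraries numbered 4, calls in pMT/VitD against VitD, higher and lower, were 0 and 12 for macrophage markers, 0 and 3 for T and NK cell markers, 0 and 5 for endothelial markers and 5 and 0 for skeletal muscle fibre markers. They were 0 and 6 for nucleic acid sensing, 4 and 15 for other antiviral effectors and 0 and 7 for interferon receptors and kinases, where 32% of all genes were called. In pMT against surgery they were then 0 and 8 for macrophage markers, 0 and 1 for nucleic acid sensing and 1 and 1 for other antiviral effectors, where 3.15% of all genes were called.

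**Figure D3:**
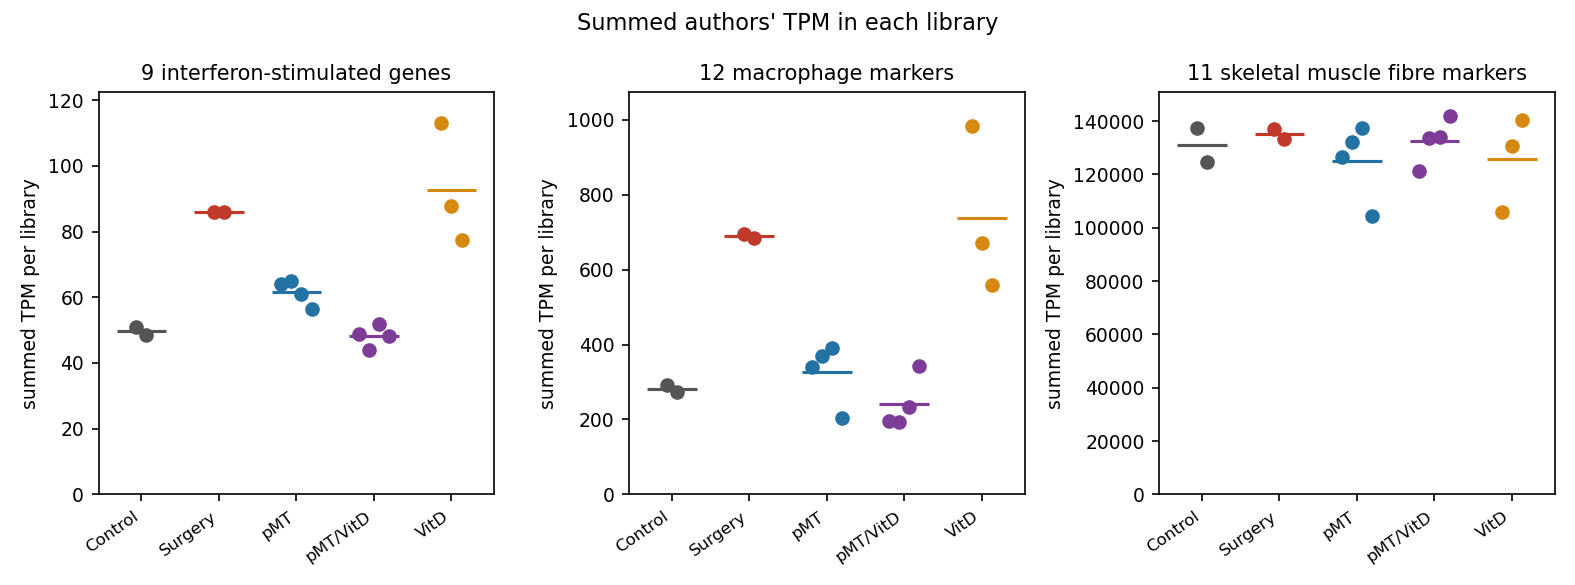
Summed authors' TPM in each library of the 9 genes, of 12 macrophage markers and of 11 skeletal muscle fibre markers, with 1 point per library and a bar at the group mean for 2 control, 2 surgery, 4 pMT, 4 pMT/VitD and 3 VitD libraries. The macrophage sums are 560 or more in all surgery and VitD libraries and 390 or less in all others.

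Because the 9 genes respond to shared transcription factors, their promoters were searched for 2 sequence motifs. Promoters came from RefSeq on the build GRCr8, each with 250 bases before and 50 after the start of the gene, and 6 of the 9 genes were matched by gene ID. The promoter table used here has no entry for Isg15, Ifit2 and Mx2. GAAANNGAA, the core of the interferon-stimulated response element, was searched on both strands, so TTCNNTTTC counts as well. It was found in 4 of the 6, Irf7, Oas1a, Ifit3 and Gbp2, and in 9.71% of 33469 promoters of the same length. TTCNNNGAA, the gamma-activated site, reads the same on both strands and was found in Irf1 and Oas1a, and in 8.87% of all promoters. The promoter of Mx1 holds neither in this window.

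In Oas1a 2 copies of the former motif overlap, at -41 to -33 and -35 to -27 from the start, and the latter motif lies at -199 to -191. Ifit3 has 2 copies on the opposite strand, at -43 to -35 and -24 to -16. The single copies of Gbp2 at -30 to -22 and of Irf7 at -68 to -60 are also on the opposite strand, and Irf1 has its match at -142 to -134. The 5 promoters with a match are shown, since they are the sequences these genes could share a regulator through. They lie at chr10:38417685-38417984 on the plus strand for Irf1, chr1:205799974-205800273 on the minus strand for Irf7, chr12:41330216-41330515 on the plus strand for Oas1a, chr1:241527076-241527375 on the plus strand for Ifit3 and chr2:234005477-234005776 on the plus strand for Gbp2. Each is written 5′ to 3′ on the strand of its gene, with matches to either motif in capitals. A match is a description of letters and no evidence of binding.
Irf1: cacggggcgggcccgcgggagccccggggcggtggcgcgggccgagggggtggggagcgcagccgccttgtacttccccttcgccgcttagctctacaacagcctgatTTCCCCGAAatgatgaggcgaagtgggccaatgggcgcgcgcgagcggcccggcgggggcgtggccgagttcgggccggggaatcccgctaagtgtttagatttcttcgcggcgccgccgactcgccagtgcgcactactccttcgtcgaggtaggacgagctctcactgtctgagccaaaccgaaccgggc
Irf7: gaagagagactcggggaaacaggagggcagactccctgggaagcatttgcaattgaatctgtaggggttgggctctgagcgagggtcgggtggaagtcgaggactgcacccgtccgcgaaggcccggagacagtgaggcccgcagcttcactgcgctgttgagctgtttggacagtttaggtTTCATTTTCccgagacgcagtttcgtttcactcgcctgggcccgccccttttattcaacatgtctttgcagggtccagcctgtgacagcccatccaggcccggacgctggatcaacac
Oas1a: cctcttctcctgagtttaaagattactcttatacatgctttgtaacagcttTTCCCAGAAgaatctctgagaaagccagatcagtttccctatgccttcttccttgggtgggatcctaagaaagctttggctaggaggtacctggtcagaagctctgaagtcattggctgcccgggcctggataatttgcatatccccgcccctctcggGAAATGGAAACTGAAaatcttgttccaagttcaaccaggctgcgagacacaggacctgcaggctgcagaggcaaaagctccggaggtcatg
Ifit3: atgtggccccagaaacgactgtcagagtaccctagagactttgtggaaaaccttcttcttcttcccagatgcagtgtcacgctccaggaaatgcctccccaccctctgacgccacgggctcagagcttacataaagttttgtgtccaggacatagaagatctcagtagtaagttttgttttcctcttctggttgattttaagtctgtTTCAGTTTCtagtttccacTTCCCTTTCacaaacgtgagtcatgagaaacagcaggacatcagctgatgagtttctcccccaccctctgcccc
Gbp2: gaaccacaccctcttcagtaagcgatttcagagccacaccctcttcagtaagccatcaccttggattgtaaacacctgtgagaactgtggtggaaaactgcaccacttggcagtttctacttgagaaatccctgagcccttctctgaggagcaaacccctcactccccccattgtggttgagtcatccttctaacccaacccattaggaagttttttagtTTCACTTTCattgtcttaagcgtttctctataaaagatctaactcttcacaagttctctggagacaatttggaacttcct

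With 2 libraries in control and 2 in surgery, a difference can be called only where it is large beside the spread. Several calls change without VitD 1, VitD 2 or the libraries numbered 4, as given above. It is not stated whether libraries are separate rats, nor on which days the VitD groups were treated and sampled. RNA levels say nothing about protein or about which cells hold the transcripts. No buffer injection was among the groups, and assignment of reads within gene families is unknown.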

How the data were processed

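RNA of 15 rat multifidus libraries was sequenced on an Illumina NovaSeq. Upstream tools named by the authors are Trimmomatic 0.38 for trimming, HISAT2 2.1.0 for alignment to rn6, SAMtools 1.9 for sorting and StringTie 2.1.3b for gene levels. The deposited counts are raw read counts per gene. The deposited TPM are scaled by gene length and library total. The deposited FPKM, also by the authors, were not used here. Counts were fitted in edgeR 4.0.16 (R 4.3.3) over all 15 libraries, with filterByExpr, TMM factors and robust quasi-likelihood tests, without covariates, and Benjamini-Hochberg adjustment over 17201 genes; the fit was also tested on simulated data. DESeq2 1.42.0 and limma 3.58.1 served as alternatives, with other scalings, filters, a gene length offset, edgeR's exact test, subsets of libraries and a replicate block. The replicate numbers were checked for pairing.

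The 9 genes and the gene lists were chosen with earlier results of these data known. The text names all 9, and from each list up to 3 of the most abundant tested genes and up to 4 called ones by size of change. It also names the 8 genes most like the mean of the 9 by Pearson r. Ligands and some markers at or near 0 are named as well. The prior count of log2 values was 2. Marker lists stand for cell types by name only. The 2 alternatives added after seeing the data leave out VitD 1 and VitD 2 together, and remove the length trend with library sizes only.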

Additional observations from a re-analysis of the deposited data

How the results depend on the processing

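Counts of the 9 genes called are given as the value in all 15 libraries, then under each alternative that moved it, with the share of all genes called in brackets. This share was not taken for the higher fold threshold. Over the 5 groups it was 4 (11.8%), with 7 (20.8%) by library size only, 5 (21.6%) by DESeq2, 8 (66.7%) by limma voom, 1 (6.28%) with the replicate block, 7 (29.8%) without both libraries numbered 4 and 1 (4.08%) without VitD 1 and 2, an alternative chosen after seeing the data. Leaving out 1 library gave 2 to 5 (6.38% to 16%). In surgery against control it was 0 (1.55%), with 5 (5.8%) by library size only, 2 (5.82%) by DESeq2, 7 (28.7%) by limma voom, 7 (32.4%) in a fit to the 2 groups, 7 (36.2%) by exactTest and 2 (4.17%) without both libraries numbered 4. Leaving out 1 library gave 0 to 2 (0.0449% to 5.98%).

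In pMT against surgery it was 0 (1.94%), with 1 (1.96%) by library size only, 1 (2.33%) with at least 10 counts in every library, 2 (4.34%) by DESeq2, 6 (37.7%) by limma voom, 2 (3.13%) in a fit to the 2 groups, 2 (5.66%) by exactTest and 1 (3.15%) without both libraries numbered 4; leaving out 1 library gave 0 to 2 (0.152% to 4.33%). In pMT/VitD against surgery it was 2 (7.44%), with 7 (18.9%) by library size only, 3 (13.1%) by DESeq2, 5 (39.5%) by limma voom, 0 (2.03%) with the replicate block, 0 (5.12%) in a fit to the 2 groups, 3 (20.1%) without both libraries numbered 4, 3 (9.75%) without VitD 1 and 2 and 0 at a fold change of at least 2. Leaving out 1 library gave 0 to 4 (0.687% to 12.8%).

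In pMT/VitD against VitD it was 4 (21.9%), with 8 (33.5%) by library size only, 6 (48.9%) by limma voom, 5 (25.4%) with the length trend removed, 5 (25.4%) with that and library size only, 3 (11.3%) in a fit to the 2 groups, 0 (0.897%) without VitD 1 and 2 and 0 at a fold change of at least 2. Leaving out 1 library gave 3 to 5 (10.9% to 26.5%). In VitD against control it was 3 (8.67%), with 7 (16.2%) by library size only, 5 (14.4%) by DESeq2, 7 (37.5%) by limma voom, 4 (13.8%) with the length trend removed, 4 (13.6%) with that and library size only, 2 (7.55%) with the replicate block, 1 (0.579%) in a fit to the 2 groups, 5 (12.5%) by exactTest, 5 (15.1%) without both libraries numbered 4, 0 (0.176%) without VitD 1 and 2 and 1 at a fold change of at least 2. Leaving out 1 library gave 0 to 5 (0.0731% to 14%). In pMT/VitD against pMT it was 0 (0%), with 2 (38.5%) by limma voom and 1 (18.3%) without both libraries numbered 4, and in pMT against control 0 (0%), with 1 (1.34%) by limma voom. The count was 0 throughout for VitD against surgery and pMT/VitD against control. For the interaction it was 0 with all libraries, and its counts under the alternatives are not given here. The cause of these differences was not tested, apart from fits with fewer libraries or a higher fold threshold.

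Of 2502 values of single genes under the alternatives, 2311 stayed on the same side of the threshold, 71 lost a call, 120 gained one and 0 reversed a call. Values that were not called changed sign 62 times. Where 1 library was left out, 44 calls were lost and 19 gained. The number of libraries, 2 in control and in surgery, limits what these tests can call.

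The replicate block treats equal numbers as pairs across groups. Over 24 pairs of equal number, correlations of the residual values ran from -0.499 to 0.169, and 2 were above 0.1. The pairs are not separate checks, since the residuals of the 2 libraries in control, and in surgery, mirror each other. No sign of pairing was seen, but this check cannot settle whether libraries of equal number belong together.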
